A study of Arabidopsis thaliana with 6 samples.

Results

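The Col-0 libraries, 3 of the 6 samples in the study, were described as a baseline of gene expression and splicing in leaves. They were chosen by genotype alone, as the libraries labelled Col-0, the wild-type accession of Arabidopsis thaliana that carries no mutation or transgene here. All 3 came from rosette leaves of 40-day-old plants that had not flowered and were kept at 22 °C in 8 h of light and 16 h of darkness each day. The light intensity lay between 85 and 120 µmol of photons per m2 and second, and seeds had been held at 4 °C for 3 days. The remaining samples, the mac3a mac3b double mutant under the same conditions, were not analysed here. Polyadenylated RNA was sequenced. The labels do not say whether the replicates were separate plants or harvests, nor at what time of day leaves were taken, so the spread given for each value is that between 3 libraries and may be partly technical.

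A mature leaf devotes much of its messenger RNA to the chloroplast: the small subunit of Rubisco, the enzyme that fixes CO2, and the light-harvesting proteins that bind chlorophyll are encoded in the nucleus. Plant introns are short, and where splicing has more than 1 outcome the most frequent one is an intron left in the transcript. An exon can also be left out, and neighbouring donor (5′) or acceptor (3′) splice sites can compete for the same exon. Plant genes for SR proteins, which bind exons and guide the spliceosome, and for clock proteins are known for such alternatives.

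The deposited unique read counts, given for 13069 genes, summed to 108909613 in replicate 1, 106740080 in replicate 2 and 89304764 in replicate 3. Gene levels were deposited as RPKM, reads per kilobase of gene and per 1000000 reads. No 2 libraries were copies of each other: the chi-square of their counts per degree of freedom lay between 591.9 and 1283. The labelled tissue was checked against marker lists. Of 31 photosynthesis genes, 31 had a mean of at least 1 RPKM, with means of 503 to 13459 RPKM. All 4 epidermis markers, 3 of 4 guard cell markers and 5 of 6 phloem and xylem markers also reached 1 RPKM, led by SUC2, the phloem sucrose transporter, at 121, 214 and 116 RPKM. None of 8 root markers and none of 4 pollen markers did. Of 9 flower markers only FUL, a MADS-box gene also expressed in leaves, passed, at 1.29, 2.87 and 2.59 RPKM. LFY and AP1, which specify the flower, were listed at or near 0 in every library. Among 6 meristem and division markers only KNOLLE passed, and among 9 seed markers only FUS3, with means of 2.06 and 2.05 RPKM. Senescence was represented by ORE1 alone of 3 markers. SAG12, the classical marker of leaf senescence, was listed at 0 in all 3 libraries.

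Of 38194 listed genes, 17030 (44.6%) had a mean of at least 1 RPKM. Among protein-coding genes the number was 16401 of 27655 (59.3%), against 78 of 3901 transposable element genes and 153 of 1037 antisense long noncoding RNAs. A level of 10 RPKM was reached by 8855 genes, of 100 RPKM by 843 and of 1000 RPKM by 66. The libraries agreed closely in this count, with 16952, 16721 and 16779 genes at 1 RPKM or more.

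Photosynthesis genes headed the list. LHCB1.3, a chlorophyll-binding protein of the photosystem II antenna, had the highest mean level of the nuclear genes, at 20916, 11674 and 7786 RPKM. RBCS1A, the main Rubisco small subunit gene, followed at 15565, 6975 and 5686 RPKM. In both genes replicate 1 was far above the others, and replicate 3 was the lowest. Of the 20 nuclear genes with the highest means, 3 encode no part of the photosynthetic machinery. GRP7, a glycine-rich RNA-binding protein under clock control, stood at 4839, 6040 and 6477 RPKM. THI1, which makes the thiazole part of vitamin B1, stood at 3141, 4075 and 4092 RPKM. MT3, a metallothionein that binds metal ions, stood at 1660, 4084 and 4138 RPKM. All 3 were lowest in replicate 1, the reverse of the genes around them.

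The libraries differed in how far their reads were concentrated on a few genes. The 20 highest genes of each library held 15.7% of its reads (RPKM times gene length) in replicate 1, 12.54% in replicate 2 and 10.2% in replicate 3. The photosynthesis list alone held 17.4%, 11.9% and 7.71%. Of its 31 genes, 29 were highest in replicate 1 and 29 lowest in replicate 3. Over all 8855 genes of at least 10 RPKM, 3243 were highest in replicate 1, 2492 in replicate 2 and 3114 in replicate 3, and 3445, 2542 and 2854 were lowest in replicates 1, 2 and 3. Within the photosynthesis list, LHCB1.1 showed the widest spread, at 3813, 1464 and 481 RPKM, a coefficient of variation (CV, the SD over the mean) of 89.2%. RCA, Rubisco activase, which keeps Rubisco active, showed the narrowest, at 3424, 2961 and 2236 RPKM (CV 20.8%). Over all light-harvesting genes with LHCA and LHCB symbols, 18 were expressed, 16 of them were highest in replicate 1 and 17 lowest in replicate 3. Their highest library was 2.17 to 9.96 times their lowest, with a median of 3.63. Chloroplast-encoded genes, which poly(A) selection captures poorly, held 0.157%, 0.188% and 0.147% of the reads.

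The CV gave the spread between the libraries gene by gene. Its median was 20.7% over the 8855 genes that reached 10 RPKM, with 5% of genes under 5.10% and 5% above 62.2%. The CV depended on the level. Its median was 29.9% at 1 to 3 RPKM, 19.02% at 10 to 30 RPKM, and 36.6% at 300 RPKM or more, the class of the photosynthesis genes. Counting error is a small part of this: in the 8384 genes with 1000 to 10000 unique reads, edgeR's biological CV had a median of 26.6%, where counting alone gives 1.77%. Across genes, log2(RPKM + 1) correlated at r = 0.918 between replicates 1 and 2, at 0.911 between 1 and 3, and at 0.943 between 2 and 3. Genes are not independent replicates, so these values describe the libraries only. A difference of 2-fold or more separated replicates 2 and 3 in 1299 genes (7.63%), replicates 1 and 2 in 1982 (11.6%), and replicates 1 and 3 in 2124 (12.47%). Among the 944 genes with a CV of at least 50%, 546 were highest in replicate 1, 164 in replicate 2 and 234 in replicate 3, against 3243, 2492 and 3114 of the 8855. Without replicate 1 the median CV was 13.9%, but a CV from fewer libraries tends to be lower. The biological CV over all genes was 33.5% with every library. It was 28.4% without replicate 1, 36.5% without replicate 2 and 34.5% without replicate 3.

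**Figure D1:**
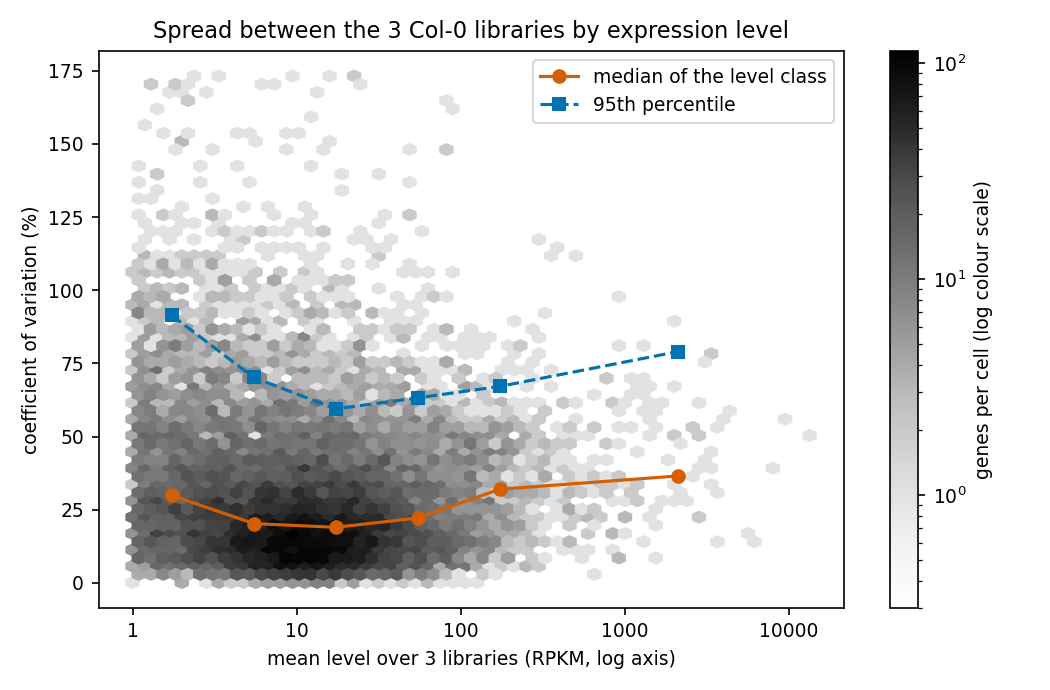
Coefficient of variation over the 3 Col-0 libraries (vertical axis, %) against the mean level (horizontal log axis, RPKM), for every gene that reached 1 RPKM, with shading for the number of genes. The line of class medians is lowest, at 19.02%, for genes of 10 to 30 RPKM and reaches 36.6% at 300 RPKM or more.

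Some genes hardly differed between the libraries. ARF1A1C, a small GTPase of vesicle traffic, stood at 112.18, 111.85 and 111.47 RPKM. DEK1, a membrane-bound calpain protease needed for the epidermis, stood at 12.24, 12.18 and 12.30 RPKM. PAE1, a proteasome subunit, stood at 22.04, 22.09 and 22.35 RPKM. In each of the 3 genes the CV was below 1%. Also among the 10 steadiest were AT2G35810, AT5G45060, SDH6, SAE2, DRP3A, ITN1 and PDR2, whose CVs lay between 0.149% and 0.737%.

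Of the 8 genes widely used as expression references, PP2AA3, a phosphatase 2A scaffold subunit, had a CV of 2.93%, at 21.5, 22.5 and 22.7 RPKM. UBC9, a ubiquitin-conjugating enzyme, had 4.20%, and TIP41 had 6.56%. UBQ10, a polyubiquitin gene, did not share this steadiness, at 476, 784 and 1254 RPKM (CV 46.7%), nor did AT5G60390 at 816, 376 and 636 RPKM (CV 36.3%). The median over the 8 was 11.2%, against 20.7% over all genes at 10 RPKM or more.

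At the other end stood genes that were high in a single library. LDOX, which makes the coloured anthocyanidins, was at 0.02, 45.8 and 0.02 RPKM. DFR, the enzyme before it in the pathway, was at 0.03, 71.6 and 0.04 RPKM. GSTF12, a glutathione transferase needed to move anthocyanin into the vacuole, was at 0.03, 75.2 and 0.81 RPKM. In all 3 the RNA was near 0 outside replicate 2. SEN1, a gene induced by darkness, was instead high in replicate 3, at 4.97, 1.76 and 234 RPKM. Replicate 1 alone was high for AT5G03350, at 262, 8.90 and 1.14 RPKM, and for LBD37, a transcription factor induced by nitrate, at 47.1, 2.43 and 1.93 RPKM. The other 4 of the 10 most variable genes were AT4G14090, high in replicate 2, and AT1G49500, AT1G14250 and the chloroplast rRNA gene ATCG01170, high in replicate 1. A gene listed at a few hundredths of an RPKM has almost no reads, so no ratio is given for it.

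**Figure D2:**
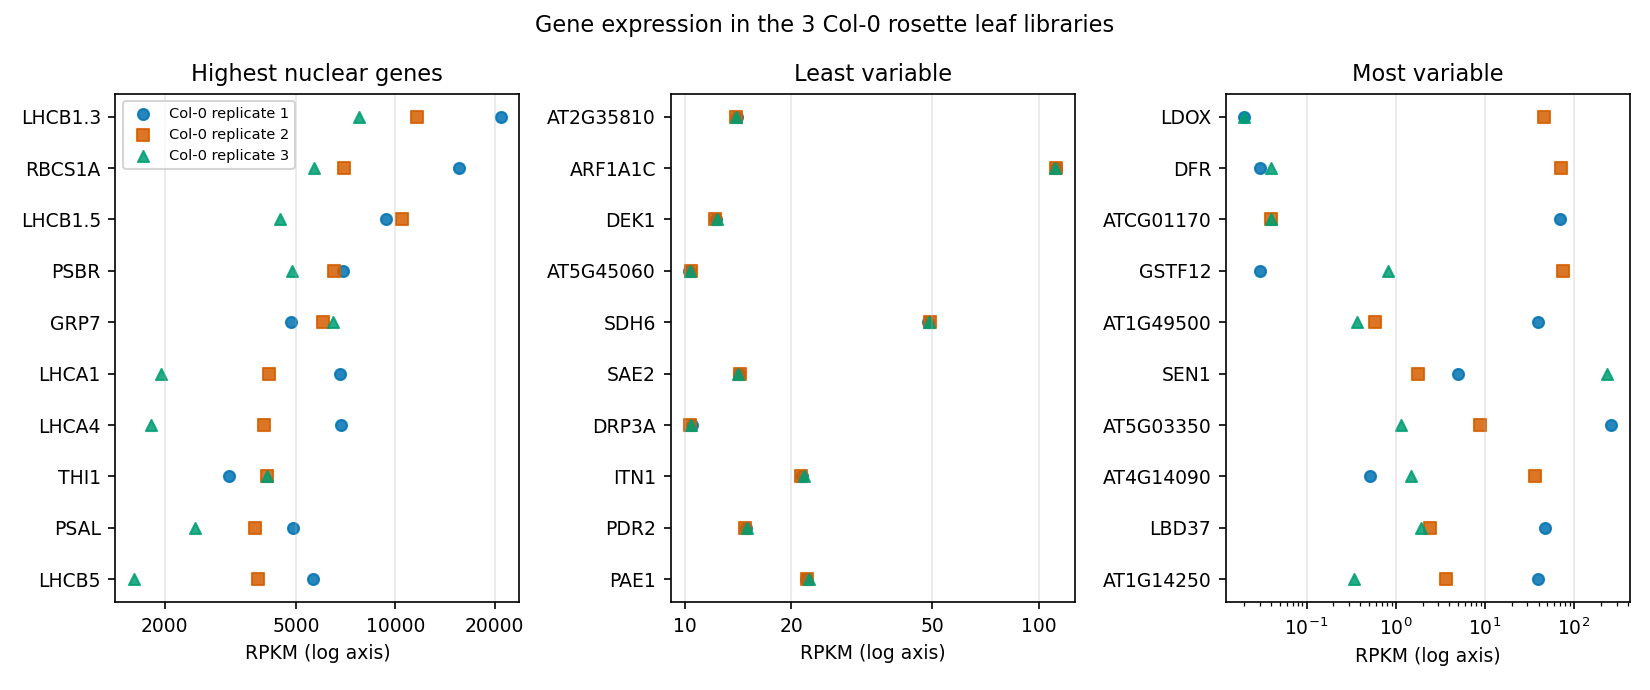
RPKM (log axes) in each Col-0 library, 1 symbol per library, for the 10 highest nuclear genes, the 10 least variable and the 10 most variable genes at 10 RPKM or more. The 3 symbols of LHCB1.3 run from 7786 to 20916 RPKM, those of ARF1A1C lie on each other near 112 RPKM, and LDOX is high in replicate 2 only.

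To see what moved with these genes, 4 lists were drawn up after their values had been seen, so their counts are descriptions. Of 12 anthocyanin and flavonoid genes, 11 were expressed and 10 of these were lowest in replicate 1, while LDOX was equally low in replicates 1 and 3, with summed levels of 31.0, 412 and 203 RPKM. TT4, chalcone synthase, the first enzyme of the pathway, was at 14.9, 99.1 and 94.7 RPKM, high in both replicates 2 and 3, unlike DFR and LDOX. The 7 aliphatic glucosinolate genes summed to 184, 683 and 234 RPKM, and 6 of the 7 were highest in replicate 2. CYP83A1, which oxidises the aldoximes of the pathway, had the highest mean, at 79.6, 192 and 104 RPKM. MAM1, which lengthens the methionine side chain, was at 29.8, 196 and 39.5 RPKM. The 8 nitrogen response genes summed to 317, 52.3 and 50.4 RPKM, and 7 of 7 expressed ones were highest in replicate 1. NIR1, nitrite reductase, stood at 138, 30.7 and 24.0 RPKM. The 3 dark and starvation genes, of which SEN1 was one, did not move together. ASN1, an asparagine synthetase, was highest in replicate 3, at 1.61, 1.23 and 9.52 RPKM, and DIN10 in replicate 1, at 19.7, 4.25 and 8.63 RPKM. The immune and wound list was not among those 4. LOX2, a chloroplast lipoxygenase of jasmonate synthesis, was at 717, 654 and 140 RPKM, and PDF1.2A, a defensin induced by jasmonate, at 108, 31.2 and 7.10 RPKM. Each of its 6 expressed genes was highest in replicate 1. PR1, the usual marker of salicylic acid defence, was at 0.04, 0 and 0.02 RPKM. Over the 8855 genes at 10 RPKM or more, 3445 were lowest and 3243 highest in replicate 1, and 2492 were highest in replicate 2. What set these gene lists apart between libraries was not tested.

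The flowering list described the vegetative leaf. Of 31 genes, 24 reached 1 RPKM. FT, the mobile flowering signal, was listed at 0 in all 3 libraries, and its relative TSF at 0.01, 0 and 0.03 RPKM. CO, which activates FT in long days, was at 0.10, 0.10 and 0.16 RPKM. The repressor SVP, a MADS-box protein, was the highest of the list at 75.7, 103 and 119 RPKM, and its partner FLM was at 22.3, 29.9 and 21.7 RPKM. FLC, the vernalization-controlled repressor, was low at 2.73, 3.05 and 2.1 RPKM. SOC1, a floral integrator, was at 25.9, 27.6 and 13.6 RPKM. The most even gene of the list was VRN2, a Polycomb protein, at 10.3, 10.3 and 10.6 RPKM (CV 1.59%).

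Of the clock list, LHY and CCA1, which are known to peak at dawn, were low. RVE8 was also low, at 0.70, 1.31 and 3.96 RPKM, but its relative RVE4 was at 15.6, 17.9 and 25.6 RPKM. LHY, a dawn-phased MYB repressor, was at 0.15, 0.50 and 0.20 RPKM. Its partner CCA1 was at 1.22, 3.56 and 6.90 RPKM. TOC1, an evening-phased repressor of both, was at 56.6, 54.3 and 61.8 RPKM. ELF4, a member of the evening complex, was at 77.4, 106 and 127 RPKM, and PRR7, a pseudo-response regulator of the day, at 89.4, 96.5 and 78.0 RPKM. TOC1 was the steadiest clock gene (CV 6.70%), while RVE8 (87.1%) and CCA1 (73.3%) were the most variable. Of the 19 expressed clock genes, 13 were lowest in replicate 1, against 3445 of the 8855 genes at 10 RPKM or more.

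Among 26 splicing regulators, 25 were expressed, with SCL28 at 0.353 RPKM on average as the exception. Apart from GRP7 and its close relative GRP8, at 878, 1017 and 891 RPKM, their levels were moderate. RSZ21, an SR protein with a zinc knuckle, was nearly constant at 8.78, 8.63 and 8.90 RPKM. SCL30a was the most spread, at 35.6, 22.3 and 54.1 RPKM (CV 42.8%). Of the 25, 20 were highest in replicate 3 and none was lowest there, against 3114 and 2854 of the 8855 genes at 10 RPKM or more. The 9 genes of the MOS4-associated complex, which accompanies the active spliceosome, were all expressed at means of 6.39 to 45.6 RPKM. MAC3A and MAC3B, its paired U-box ubiquitin ligases, were at 22.0, 16.7 and 20.2 RPKM and at 35.4, 36.4 and 49.0 RPKM.

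Near-identical gene copies limited some single-gene levels. In the ribosomal protein S5 family, AT1G58684 was at 215, 24.5 and 0 RPKM, and AT1G59359 at 0, 24.5 and 216 RPKM. AT1G58983 was at 0, 27.2 and 0 RPKM. How the reads of these copies were assigned is not given in the sources used here, and their levels in single libraries are uncertain. Other genes with related copies or repeats, such as the LHCB1 and RBCS families, UBQ10 and AT5G60390, were not screened for this.

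Intron retention was measured for each intron as intron depth over the sum of intron depth and the depth of the flanking exons. A value of 50% means an intron read as deeply as its exons, and 10%, the minimum for an often retained intron, means an intron depth of 1/9 of the exon depth. Of 96077 introns in 15671 genes with a summed depth of at least 10 in every library, 24937 (25.96%) had a mean of 1% or more. A mean of 10% was reached by 3852 (4.01%), and 50% by 53. The often retained introns lay in 3022 genes (19.3%), and 2443 of these genes had a single one. In 3088 introns each library was at 10% or more. The library medians were 0.260%, 0.216% and 0.154%, and 4366, 4035 and 3552 introns reached 10%. Of the 3852, 1815 were highest in replicate 1 and 1970 lowest in replicate 3.

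Most often retained introns were already drawn as exon in some annotated transcript. This held for 2413 of the 3685 that could be placed on the reference gene models (65.5%), against 4.87% of the other introns. Such values therefore include transcripts in which the segment is a normal exon. Overlap with another gene also went with retention: 19.01% of overlapping introns were often retained, against 3.54% of the rest. After both kinds had been set aside, 1091 of 86559 introns (1.26%) were often retained, and patterns are given for this unambiguous set as well.

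Several features the measurement did not use went with retention. Very short introns were retained most: 22.5% of introns of at most 60 nt, 12.46% at 61 to 70 nt and 2.40% at 86 to 100 nt. In the unambiguous set the shares were 11.04%, 5.62% and 0.796%. Above 1000 nt they were higher again, at 6.19% and 3.03%. Genes with a single intron had it retained in 16.9% of cases (6.76% unambiguous), and genes with 21 introns or more in 0.988% (0.467%). By location the share was 59.3% (54 of 91) where an intron crossed the edge of the coding region and 37.4% in noncoding genes. It was 28.2% in the 3′ UTR, 14.1% in the 5′ UTR and 2.66% between coding exons. In the unambiguous set the share was 16.0% in noncoding genes, 6.05% in the 3′ UTR, 2.22% in the 5′ UTR and 1.13% between coding exons. Depth moved with these shares: among 5 equal classes by depth, the share was 2.31% in the deepest and 7.58% in the shallowest (0.462% and 3.25% in the unambiguous set), and its part in the other patterns was not tested.

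Splice site letters followed the same course. With the 9 letters CAGGTAAGT, the consensus donor of 3 exon and 6 intron bases, introns that matched 3 letters were often retained in 21.7% of cases (8.99% unambiguous). Introns that matched 8 were retained in 1.87% (0.414%). At the acceptor the base before the final AG separated introns: 2.81% with C, 3.73% with T, 9.45% with A and 52.2% (158 of 303) with G. In the unambiguous set these were 0.900%, 1.16%, 3.20% and 29.9% (50 of 167). Introns with GT and AG ends, 91822 of those measured, were often retained in 3.62% of cases, those with GC and AG in 8.97%, and those with AT and AC in 29 of 96 (30.2%). In the unambiguous set the shares lay closer, at 1.16%, 1.70% (14 of 824) and 4.76% (3 of 63).

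**Figure D3:**
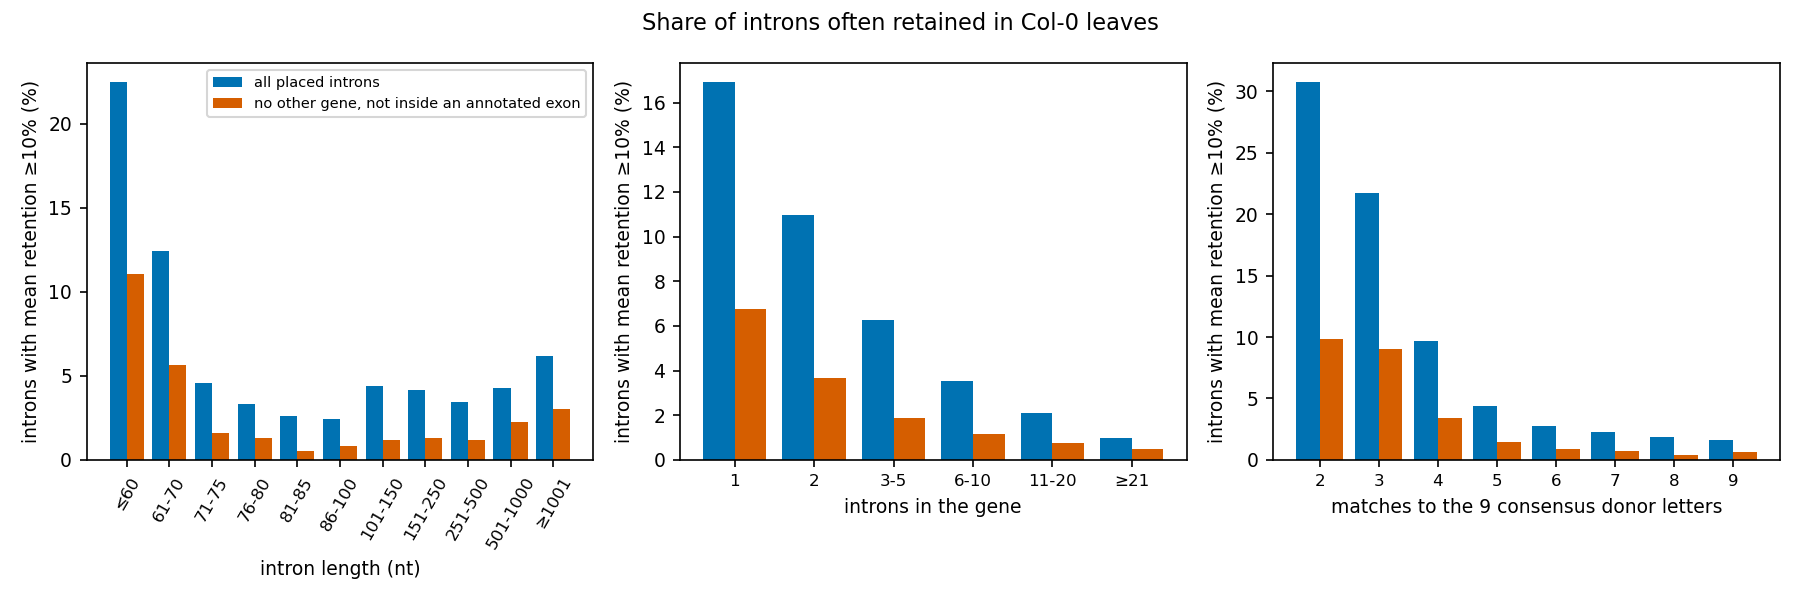
Share of introns with a mean retention of at least 10% (vertical axis, %) by intron length in nt, by the number of introns in the gene and by matches to the 9 consensus donor letters, for all placed introns and for those that overlap no other gene and lie within no annotated exon. Bars are tallest for introns of at most 60 nt (22.5% and 11.04%), for single introns (16.9% and 6.76%) and for donors with 2 matches (30.8% and 9.86%).

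Of the 10 introns with the highest retention, all but 1 had an SD between libraries under 3 points. The exception, AT2G07711, a noncoding gene with an annotated intron that has no GT or AG end, headed the list at 88.2%, 73.8% and 82.1%, at a low mean depth of 59.96. Among introns at high depth, intron 3 of TPX1, a peroxiredoxin that removes peroxides, was read more deeply than its exons, at 59.7%, 60.7% and 60.8%. It spans 52 nt at chr1:24559650-24559701 on the minus strand. Intron 1 of AT4G21620, of 99 nt, stood at 61.7%, 62.2% and 63.2%. The other members of the highest 10 were in AT1G75370 (69.4 ± 0.93%, SD over 3 libraries), AT1G01490 (63.8 ± 0.79%), AT1G75190, MBF1C, AT3G52535 and introns 2 and 3 of AT5G22608, the last at 57.6 ± 1.00%. Those of AT1G75370 and MBF1C overlap another gene.

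The ends of 3 such introns are shown because they depart from the consensus in different ways. Each line holds the last 10 exon bases and first 20 intron bases at the donor, or the last 20 intron bases and first 10 exon bases at the acceptor, read from RefSeq's TAIR10.1 with the first and last intron letters in capitals. ROC3, a cyclophilin whose intron 1 of 66 nt was at 56.0%, 57.6% and 57.5%, and AT1G27540, an AT to AC intron at 53.8%, 54.3% and 55.3%, were picked after their values were seen.
TPX1 intron 3 donor, chr1:24559682-24559711, minus strand: tagctgatggGTctggagaatacacacacc
TPX1 intron 3 acceptor, chr1:24559640-24559669, minus strand: agcttgaccttaaagacaAGggtcttggtg
ROC3 intron 1 donor, chr2:7201003-7201032, plus strand: ggtaaacaagGTaagccattacactacaaa
ROC3 intron 1 acceptor, chr2:7201059-7201088, plus strand: gaaattcatgtgtcaaggAGgtgatttcac
AT1G27540 intron 1 donor, chr1:9567804-9567833, minus strand: tcaaacgaacATcgagttttccagatattg
AT1G27540 intron 1 acceptor, chr1:9567724-9567753, minus strand: agatctacgctcaaacgaACatcgagtatt
The donor of TPX1 holds 4 of the 9 consensus letters, that of ROC3 holds 7, and the acceptor of ROC3 ends in gAG, the class retained most often. In all 3 introns at least 1 annotated transcript keeps the segment. The donor and acceptor lines of AT1G27540 repeat the same letters across both intron ends, so its exact ends are uncertain.

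In the unambiguous set the highest values after AT2G07711 and AT5G22608 intron 2 were in AT2G01008, at 46.9%, 58.2% and 55.5%, and AT1G34315. The set was not screened for repeated sequence, and both ends of the AT2G01008 intron carry nearly the same letters. Intron 7 of AT1G34315, of 48 nt, was at 49.8%, 49.9% and 50.6%, so the intron was read as deeply as its exons in every library. The remaining 6 lay between 42.8% in AT2G37035 and 47.8% in AT1G47370.

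Over the 3852 often retained introns the SD between libraries had a median of 2.54 percentage points. The median CV was 11.98%. It is the CV of a share within a gene, so it cannot be set directly beside the 20.7% for levels of genes at 10 RPKM or more. In 622 (16.1%) the libraries spanned 10 points or more. Among all introns with a depth of at least 50, whatever their mean, the largest SDs included AT3G20280, at 39.4%, 29.1% and 14.1%, and AT3G13770, at 46.6%, 30.2% and 53.9%. RLP34, a receptor-like protein, was at 26.1%, 27.4% and 5.08%. AT5G53420 was at 24.8%, 15.5% and 5.01%, and AT1G70790, with a mean of 8.09%, at 20.9%, 2.88% and 0.533%. PP2-A5, a phloem lectin family member, was high in replicate 2 alone, at 3.74%, 19.6% and 2.13% (mean 8.48%).

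In some photosynthesis genes retention was nearly equal in libraries that differed in RNA level. LHCA1, an antenna protein of photosystem I, spread from 1952 to 6797 RPKM between libraries. Its intron 3, of 55 nt, was retained at 32.82%, 32.91% and 32.87%. FBA1, a chloroplast aldolase, had a 30-nt segment at 40.5%, 40.4% and 39.9%. These were 2 of the 4 often retained introns among 91 in 25 photosynthesis genes, and LHCB2.1 (23.9 ± 2.14%) and CA1 (19.6 ± 1.77%) held the rest. Each of the 4 lies within an exon of at least 1 annotated transcript. Their values therefore include transcripts in which the segment is a normal exon. UBQ10 held all 3 of the reference list's, at 34.3%, 35.8% and 38.6% on average; these lie in its near-identical tandem ubiquitin repeats, where a read cannot be placed with certainty.

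Splicing regulators had 17 often retained introns among 188 (9.04%), in 12 of 26 genes, against 4.01% of all introns. Of the 17, only PTB2 intron 4, RS2Z32 intron 3, GRP7 intron 1 and GRP8 intron 1 lie in the unambiguous set. The share of a gene list within that set was not computed. GRP7 and GRP8, which bind their own and each other's transcripts and redirect their splicing, each had a pair. Intron 1 of GRP7 was at 9.09%, 17.5% and 9.10%, and intron 1 of GRP8 at 9.08%, 19.6% and 12.5%, both highest in replicate 2. Intron 2 of GRP7, of 51 nt within the glycine repeats, was steady at 42.8%, 43.1% and 43.7%. SCL33, an SR-like protein, had 3 (introns 3, 4 and 7), of which intron 7 was the highest at 42.4 ± 0.52%. U1-70K, a core protein of the U1 particle that recognises donors, retained its 909-nt intron 6 at 15.7%, 14.3% and 8.50%. Of the 80 introns of the MOS4-associated complex, 2 were often retained. SKIP intron 2 was at 47.8%, 46.8% and 47.3%, and MAC3B intron 18, in the 3′ UTR, at 41.1%, 39.8% and 41.5%. In both, other annotated transcripts keep the segment.

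Clock genes had 8 of 94 (8.51%), in 7 genes. Intron 5 of AT4G33980 was at 47.9%, 47.3% and 47.1%, and intron 2 of ZTL, an F-box blue-light receptor, at 46.4%, 43.8% and 45.7%. LNK2, a transcriptional coactivator, had 2, at 35.9 ± 0.62% and 19.1 ± 1.304%. ELF3, a scaffold of the evening complex, had its 1180-nt intron 2 at 12.6 ± 0.66%. Of the 8 clock introns it alone lies in the unambiguous set. Flowering genes had 13 of 177 (7.34%), in 9 genes. FCA, FPA, FY, FLD and LD, which act in the autonomous pathway that lowers FLC, accounted for 7 of them. LD intron 1 was at 45.4%, 41.9% and 38.3%, FY intron 1 at 36.9%, 38.0% and 40.2%, and FCA intron 1 at 35.8%, 38.1% and 35.3%. FLM had 3, at 26.7 ± 2.23%, 19.5 ± 2.197% and 12.2 ± 4.33%. Of the 13 flowering introns, only MAF2 intron 3, MAF3 intron 3 and FLM intron 2 lie in the unambiguous set. The guard cell, epidermis, vascular and immune lists had none among their 17, 16, 41 and 11 introns.

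Exon skipping was measured as skipping reads over skipping plus inclusion reads, for exon pairs that some read in the series had joined. How inclusion reads were counted is not given in the sources used here. Set beside the junction counts, they lay between the deeper inner junction and the sum of both in most events. If they hold reads on either inner junction, the share understates skipping where it is intermediate. Of 12555 events with at least 10 reads in every library, in 6527 genes, 5954 had no skipping read in Col-0. A mean share of 10% or more was found in 1214 (9.67%), in 1122 genes. Of these, 782 were at 90% or more, so the exon named in the model was almost absent from leaf RNA. The truly mixed class, from 10% to 90%, held 432 events in 398 genes.

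Of the mixed events, 371 skipped a single exon placed on the reference models. These exons lay in the coding region in 51.2% of cases, against 94.5% for listed exons without a skipping read in Col-0. An annotated transcript without the exon existed for 69.3% of them, against 0.547%. Coding exons skipped at 10% to 90% had a length divisible by 3 in 40.5% of 190 cases. The share was 28.6% of 448 at 1% to 10%, and 46.2% of 4141 without a skipping read in Col-0. Over all 432 mixed events, the shares had a median SD between libraries of 5.87 points, and 238 (55.1%) spanned 10 points or more. Counting error was not separated from this spread. In the 371 single-exon events the lowest library held a median of 109 reads. Of the 432, 199 were highest in replicate 3, 136 in replicate 1 and 97 in replicate 2.

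The events whose share came nearest to 50% as counted (64.4% to 68.5% with inclusion reads halved) included exon 2 of BGLU9, a beta-glucosidase, at 53.7%, 37.6% and 59.1% over 3823 reads, and exon 2 of ABCI14, an ABC protein, at 43.9%, 44.3% and 59.8% over 2088 reads. Exon 2 of AT2G38260 was the most even of the 10, at 51.1%, 53.8% and 51.3%. Exon 3 of SPP2, a sucrose phosphatase, was at 53.1%, 47.7% and 44.1%. The others were in AT4G08170, AT4G17310, AT5G24352, AT1G03290, AT1G63770 and AT1G65950. The largest differences between libraries were in ORP2A, an oxysterol-binding protein relative, at 33.0%, 24.9% and 66.3%, and in AT2G33620, at 58.5%, 47.8% and 88.7%. AT2G39950 was high in replicate 1 alone, at 54.7%, 21.9% and 21.9%. DREB2C, a stress transcription factor, was low there, at 50.7%, 74.2% and 74.3%, as was AT3G02290, at 46.4%, 78.0% and 77.5%. XIG, a myosin, was at 25%, 23.9% and 52.6%.

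Of the splicing regulators' 30 events, 10 were at 10% or more and 8 of these in the mixed class, where 9.67% of all events were at 10% or more. In 5 SR family genes a form with the exon was the minority by these counts. RS41 skipped exon 3, of 326 nt, at 79.9%, 79.1% and 86.1%. SR34a skipped exon 2, of 245 nt, at 75.3%, 64.7% and 82.9%. SR34 skipped a pair of exons at 69.3%, 61.5% and 77.9%, and RS40 exon 4 at 53.8%, 69.3% and 73.9%. Replicate 3 was the highest in these 4. SCL33 exon 4 was at 75.3%, 55.3% and 73.8%, with replicate 2 the lowest.

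PTB1 and PTB2, polypyrimidine tract binding proteins that repress exons, each had a cassette exon with skipping and inclusion reads in similar number. PTB1 exon 3, of 102 nt, was skipped at 53.8%, 52.7% and 53.2%, and PTB2 exon 4, of 61 nt, at 58.2%, 49.9% and 61.9%. With inclusion reads halved, as for reads on either inner junction, the means were 69.5% and 72.2%. Their ends, as in the introns above (intron GT and AG in capitals, RefSeq TAIR10.1), are shown because both donors depart from the consensus after GT.
PTB1 exon 3 acceptor, chr3:52625-52654, plus strand: atgaaatgctcgaatcacAGatgttgatgc
PTB1 exon 3 donor, chr3:52737-52766, plus strand: aattggacagGTgtcactctgtacttttct
PTB2 exon 4 acceptor, chr5:21570885-21570914, minus strand: cgtgaatgtaaatggatcAGcagggccatg
PTB2 exon 4 donor, chr5:21570814-21570843, minus strand: aagagcacatGTgtgtttgtttcctttctc

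Among flowering genes, 8 of 41 events reached 10% and 3 were mixed. FLM supplied 2 of these: exon 2, of 81 nt in the merged gene model, was skipped at 20.6%, 17.3% and 16.4%, and exon 3, of 46 nt, at 52.1%, 64.6% and 58.5%. MAF3, another relative of FLC, skipped exon 2 at 27.3%, 16.7% and 19.3%. Of the clock list LNK1 was mixed at 31.5%, 32.6% and 27.6%, and CCA1 skipped exon 5 at 84.6%, 83.6% and 95.5% over 156 reads. In 19 photosynthesis genes, 1 of 80 events reached 10%: a 717-nt exon of CA1, a carbonic anhydrase, which 99.95% of reads skipped. None of 6 in the MOS4-associated complex did.

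Alternative donors and acceptors were compared between exon pairs joined by more than 1 junction, of which 47504 in 12333 genes had at least 10 reads in every library. The second most used junction held 10% or more of the reads in 3221 pairs (6.78%), in 2703 genes (21.9%), and 40% or more in 397. An acceptor differed in 2064 of the 3221 (64.1%), a donor in 1067 (33.1%) and both ends in 90. Acceptors lay close together, at a median of 8 nt, with 435 pairs 3 nt apart and 201 pairs 5 nt apart. Donors lay 18 nt apart in the median, most often 4 nt (131 pairs) or 5 nt (93 pairs). The distance was divisible by 3 in 40.6% of acceptor pairs, against 25.2% of the pairs whose second site was rarer, and in 26.9% of donor pairs, against 18.2%. The second junction was annotated in 50.5% of the 3221, against 6.78% of all the pairs. Its share had a median SD of 4.25 points between libraries.

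**Figure D4:**
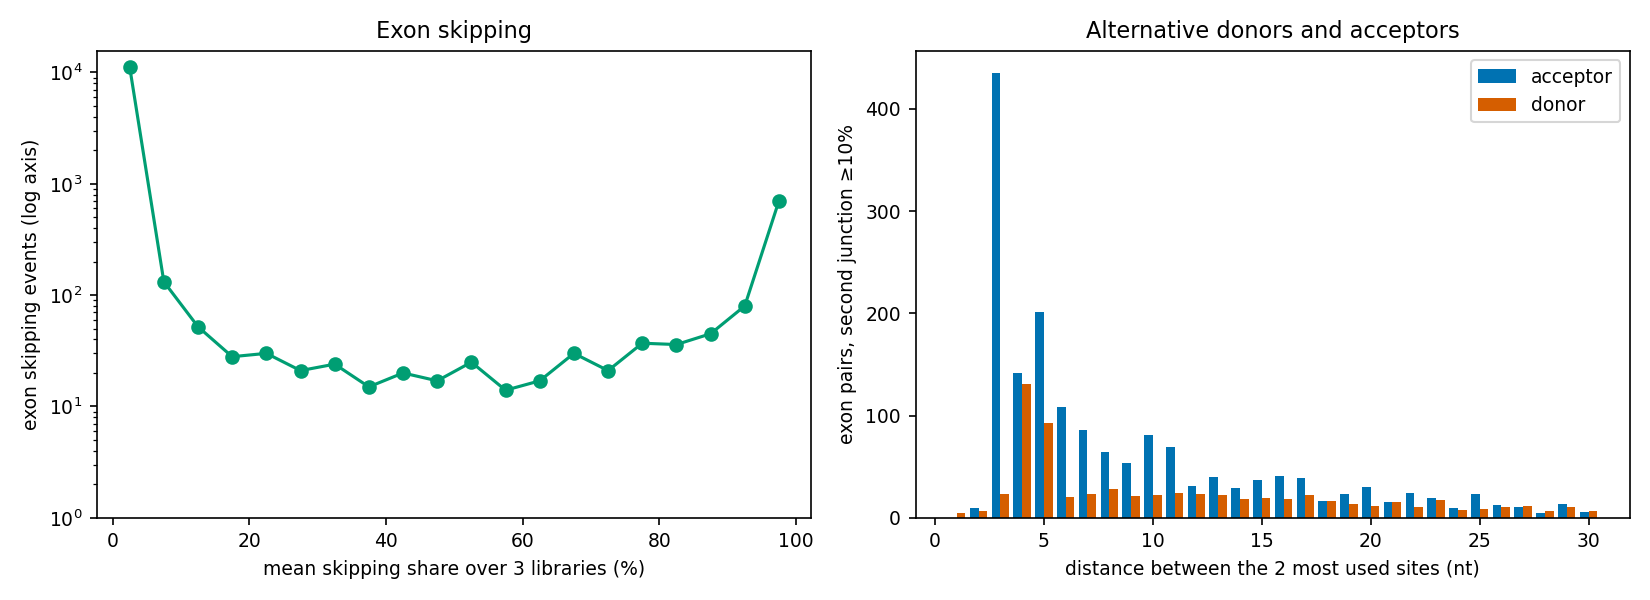
Number of exon skipping events (log axis) by mean skipping share in steps of 5%, and number of exon pairs whose second junction held at least 10% of reads by the distance between the most used sites in nt, for acceptors and donors up to 30 nt. Skipping shares pile up at both ends, with 782 events at 90% or more, and the tallest acceptor bar, of 435 pairs, is at 3 nt.

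Where 2 acceptor AGs stood 3 nt apart, the letter before each AG set apart the pairs in which both were used. Of 3362 such tandem acceptors, 441 (13.1%) used both at 10% or more. With CAGCAG the number was 116 of 164 (70.7%), with TAGTAG 51 of 72 (70.8%) and with TAGCAG 124 of 222 (55.9%). With CAGAAG it was 32 of 525, and with CAGGAG 1 of 955, where the upstream AG took 100% in the median. Where the first AG followed G, as in GAGCAG, 0 of 292 used both. The upstream AG held a median of 59.5% in CAGCAG, 90.8% in CAGTAG and 12.9% in TAGCAG.

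Tandem acceptors of the listed genes differed in which AG led. SCL33 used the downstream AG of its CAGCAG in 65.9%, 65.5% and 65.1% of 2795 reads. COR27, a clock repressor, used the upstream AG of AAGCAG in 75.97%, 75.44% and 75.06% of 6492 reads. PTB2 used the upstream AG in 53.6%, 48.3% and 51.0%, and RS41 the downstream AG in 83.5%, 78.4% and 83.7%. AT5G52660, of the clock list, used the upstream AG in 66.0%, 67.6% and 69.5%. A further one in SCL33, between exons 3 and 4, was less even, with the downstream AG at 73.9%, 48.9% and 71.9% of 150 reads. The sites are shown with both AGs in capitals (RefSeq TAIR10.1).
SCL33, chr1:20632134-20632163, plus strand: gttcgttggagcAGcAGatttcgggataga
COR27, chr5:17198594-17198623, minus strand: gtgatgttttaaAGcAGaggtatcggatca
PTB2, chr5:21570879-21570908, minus strand: tgtaaatggatcAGcAGggccatgtcaagg
RS41, chr5:21133271-21133300, plus strand: ttttgaaactgaAGcAGcccctctcgttcg
AT5G52660, chr5:21360093-21360122, minus strand: gttgatggaaacAGcAGgagcaggagctaa
All 5 share AGcAG, and they differ in the letter before it and in which AG led.

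RCA gave the deepest measurement. Its alternative splicing is known to yield a longer and a shorter activase. Donors 11 nt apart were used almost evenly: the upstream one took 55.3%, 52.3% and 53.2%, and the downstream one 44.4%, 47.3% and 46.5%, over 224425 reads. The clock genes PRR9 and PRR3, a pair of pseudo-response regulators, and LNK2 were split as evenly at lower depth. PRR9 used the downstream of 2 donors 8 nt apart in 52.8%, 52.0% and 41.5% of reads. PRR3 used the downstream of 2 acceptors 7 nt apart in 42.0%, 47.5% and 48.0%. LNK2 used the upstream of 2 donors 3 nt apart in 39.8%, 38.3% and 41.3%. Both GTs or AGs are in capitals (RefSeq TAIR10.1).
RCA, chr2:16571170-16571199, minus strand: ctttctacgGTaaaacagagGTttgaaact
PRR9, chr2:19233313-19233342, plus strand: cctgtcataaGTacgatgGTgatcccctaa
PRR3, chr5:24200645-24200674, minus strand: gttttggtgaAGggattAGaataagtttgg
LNK2, chr3:20178144-20178173, minus strand: gattcaacaagagGTgGTgcgtttctcttg

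Splicing regulators had 19 alternative pairs of 147 (12.9%), in 16 genes, and clock genes 10 of 63 (15.9%), against 6.78% of all pairs, while photosynthesis genes had 2 of 88. Several of the splicing regulators' pairs lay far apart and differed between libraries. SR30, an SR protein, used the most common of 2 acceptors 338 nt apart in 69.0%, 75% and 47.2% of 2876 reads. U2AF65A, which binds the polypyrimidine tract, used the downstream of 2 acceptors 173 nt apart in 58.1%, 37.1% and 59.2%. RS31a donors 556 nt apart were split 57.7%, 68.2% and 29.5%. In U1-70K, by contrast, donors 796 nt apart were at 56.8%, 60.2% and 60.3%. SKIP was the MOS4-associated complex's only pair of 39, with a second acceptor at 18.05%, 15.61% and 9.59%.

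Of the 10 pairs nearest to even use, the second site of ARPC1B, an Arp2/3 complex subunit, 4 nt from the first, took 51.4%, 49.6% and 48.5%. PUT2, a polyamine transporter, split acceptors 67 nt apart at 52.6%, 50.5% and 47.2%. TEJ, a poly(ADP-ribose) glycohydrolase that affects clock period, had donors 10 nt apart, with the first at 63.9%, 42.3% and 44.2%. The others were in AT1G73750, CID7, ZEU1, AT5G21060, AT5G67610, AT1G73350 and AT3G57980. The pairs that differed most between libraries were in AT2G43760, with the first junction at 29.7%, 67.2% and 72.3%, and in AT5G17670, at 74.3%, 70.6% and 36.0%. AT4G32060, over 5806 reads, was at 75.9%, 45.9% and 79.7%. RS31a, IDD4, ATSRL1, AT3G21810, AT1G33415, AT3G06480 and AT5G08510 made up the rest.

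**Figure D5:**
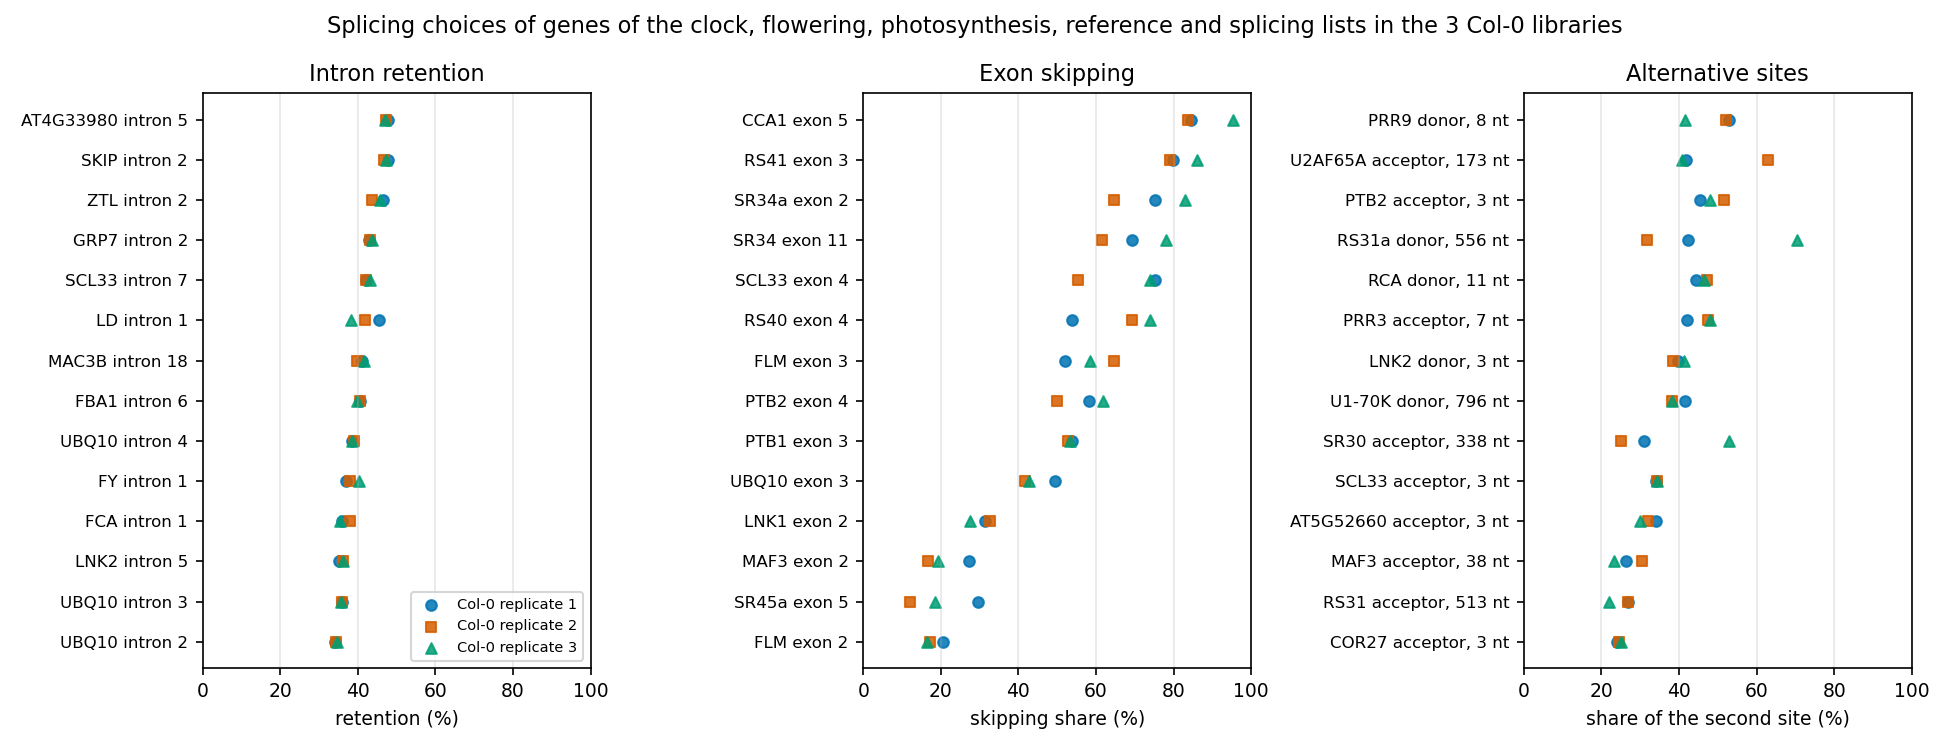
Intron retention, skipping share and share of the second splice site (horizontal axes, %) in each Col-0 library, 1 symbol per library, for the highest events of the clock, flowering, photosynthesis, reference, splicing regulator and MOS4-associated complex lists. The 3 symbols of most retained introns shown nearly coincide (SKIP intron 2 at 46.8% to 47.8%), with LD intron 1 wider at 38.3% to 45.4%, while SCL33 exon 4 and the RS31a donor spread by 20 points or more.

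Promoter letters were compared with leaf expression over 27444 promoters, each 250 bases before to 50 bases after the annotated start. Matches on either strand describe letters, not binding. The G-box CACGTG, bound by light and hormone response factors, was in 7.68% of all promoters, in 4.52% of those in the lowest 10% by expression and in 11.48% of those in the highest 10%. In the 100 highest genes it was in 25%. The evening element AAAATATCT, bound by CCA1 and LHY, was in 2.82% of all, 1.57% of the lowest 10% and 5.79% of the highest 10%. TGGGCC or TGGGCT, found in promoters of ribosomal and dividing-cell genes, was in 21.7%, 10.7% and 33.5%. TATAAA went the other way, at 52.2%, 57.4% and 49.6%. In the 100 highest genes the evening element was in 10% and TATAAA in 41%. TGGGCC or TGGGCT was there in 21%, near the share over all promoters and below that of the highest 10%. Of the 31 photosynthesis promoters, 6 held a G-box and 0 an evening element. Of the 20 clock promoters, 8 held a G-box and 6 an evening element.

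GRP7, the highest of the splicing regulators and itself clock-controlled, had 3 evening elements in the last 76 bases before its start. The 250 bases before the start, chr2:9266558-9266807 on the minus strand, are shown with the elements in capitals, in either orientation (RefSeq TAIR10.1).
GRP7 upstream: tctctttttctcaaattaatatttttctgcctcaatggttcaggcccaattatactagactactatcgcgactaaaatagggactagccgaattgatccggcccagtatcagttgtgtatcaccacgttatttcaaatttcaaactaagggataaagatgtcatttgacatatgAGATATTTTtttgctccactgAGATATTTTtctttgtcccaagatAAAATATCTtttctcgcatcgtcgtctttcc

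Of the 7 evening elements in 6 clock promoters, the 4 nearest before the start, in TOC1, LUX and COR27, are shown with 10 bases before them. PRR5, PRR9 and AT4G33980 hold the others. The element of LUX, a MYB protein of the evening complex, began 53 bases before the start, and COR27 had a pair, 20 and 39 bases before it.
TOC1, chr5:24674802-24674831, plus strand: aaatatcatgAGATATTTTctccaagatga
LUX, chr3:17182979-17183008, plus strand: tagaagatctAAAATATCTagctaactcgt
COR27, chr5:17199911-17199940, minus strand: gcagttgaagAAAATATCTttgatattttt
COR27, chr5:17199930-17199959, minus strand: ggacggtggaAGATATTTTgcagttgaaga
LUX stood at 11.3, 15.2 and 10.2 RPKM, COR27 at 38.9, 75.9 and 51.4 RPKM, and TOC1 at 56.6, 54.3 and 61.8 RPKM, so genes with the element differed in level and in how far the libraries spread.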

How the data were processed

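Polyadenylated RNA of 3 Col-0 leaf libraries was described. Trimmomatic, Bowtie2, DESeq2 and the build TAIR10 are named in the submitters' processing notes, without versions. Gene values are RPKM made by the authors and deposited per library. Per the file headers, the splicing tables hold the authors' average read depth (signal or coverage) of introns and flanking exons, the covered fraction of each intron, and read counts of skipping, inclusion and alternative junctions and of unique reads per gene. No per-sample column lacked a sample (0).

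From these, means, SDs, shares and CVs were computed with Python 3.11.15, numpy 2.4.6 and pandas 2.3.3, figures with matplotlib 3.10.9, and the biological CV of unique reads with edgeR 4.0.16 (R 4.3.3; DESeq2 1.42.0 size factors as an alternative), tested on simulated data. Genes needed a mean of 1 RPKM, introns a depth of 10, and events 10 reads in every library. Intron lengths and numbers matched RefSeq TAIR10.1 models for 98.94% of 105206 introns; splice letters, promoters and symbols came from there. The alternative-site counts list an exon pair in several rows. Of 160241 rows with at least 10 reads in every library, 34167 repeat another row's reads, unchanged or with the read kinds exchanged. These rows were kept for the exon pairs given here. Inclusion reads were a median of 87.1% of the sum of both inner junctions. The counting CV covers counting error only.

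Named were the 20 nuclear genes with the highest means, the 10 most and least variable genes at 10 RPKM or more, the 10 highest introns, the 10 events nearest to 50%, the 10 most variable of each at a depth or read number of 50, and genes of fixed lists. The members and lists were chosen with earlier results of these data known. With 1 genotype, no test between groups was made. Minimum levels, scaling and leaving out each library were tried as alternatives.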

Additional observations from a re-analysis of the deposited data

How the results depend on the processing

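No paired analysis was possible because the report covers 1 genotype and its results come from no test. The median CV, 20.7% at 10 RPKM or more, was 33.3% at a minimum of 100 RPKM and 25.5% after each library was rescaled to its total. Without 1 library it was 13.9% to 19.1%, lowest without replicate 1, but a CV from fewer libraries tends to be lower. The biological CV of unique reads, 33.5% over all genes, was 28.4% to 36.5% without 1 library. Counting 1 intron per gene, the median one, left 891 often retained. In the highest 20% by expression in place of the highest 10%, the evening element was in 4.50% of promoters and TGGGCC or TGGGCT in 30.8%; among genes of at least 1 RPKM the evening element was in 6.74% of the highest 10%. Without 1 library, the other counts were 16852 to 17040 expressed genes, 3843 to 4229 retained introns, 1230 to 1244 skipping events and 3309 to 3344 exon pairs. Halving inclusion reads, an alternative chosen after seeing the data, gave 1338 skipping events. Depth limits rare events: a feature near the minimum of 10 reads or depth resolves no share under 10%.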
